A study of Saccharomyces cerevisiae with 32 samples.

Results

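Pyruvate decarboxylase and alcohol dehydrogenase carry out the closing steps of alcoholic fermentation. Of the 6696 open reading frames in the deposited tables, 7 were taken by their systematic names: the decarboxylase genes PDC1 (YLR044C), PDC5 (YLR134W) and PDC6 (YGR087C), and the dehydrogenase genes ADH1 (YOL086C), ADH2 (YMR303C), ADH3 (YMR083W) and ADH5 (YBR145W). All 7 passed the filter on low counts in both assays.

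The genes were followed in 8 natural isolates of Saccharomyces cerevisiae, labelled CQC, CPI, CMP, BTT, BPL, BED, BAN and AMH. Every isolate is labelled as wild type and was grown in SC medium, a defined synthetic medium. Each isolate had RNA-seq and ribosome profiling libraries, 2 of each kind, which makes 32. Ribosome profiling sequences the fragments of mRNA that ribosomes shield from nuclease, called footprints here. The series asks how differences in mRNA between genetic backgrounds carry over to translation, so each gene was compared in mRNA, in footprints and in translation efficiency (TE), the ratio of footprints to mRNA. The labels give no sugar concentration, cell density or time of harvest, and do not say whether the 2 replicates were separate cultures.

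Pyruvate decarboxylase, an enzyme that needs thiamine pyrophosphate, splits pyruvate at the end of glycolysis into acetaldehyde and carbon dioxide. Alcohol dehydrogenase, a zinc enzyme, then reduces acetaldehyde to ethanol and returns NAD+ to glycolysis. When glucose is scarce the reverse reaction lets cells use ethanol, and in laboratory strains glucose represses ADH2, the gene best known for that direction, while the activator Adr1 induces it. In zinc-starved laboratory yeast the factor Zap1 induces ADH4, an unrelated dehydrogenase, and ADH1 and ADH3 are repressed. PDC1 is the main decarboxylase gene, and PDC5 is known to rise when PDC1 is lost or thiamine is short.

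On the R64 assembly, which sacCer3 denotes, PDC1 lies on chromosome XII at 232390 to 234081 and PDC5 on the same chromosome at 410723 to 412414. PDC6 lies on chromosome VII at 651290 to 652981, ADH1 on XV at 159548 to 160594, ADH2 on XIII at 873291 to 874337, ADH3 on XIII at 434788 to 435915, and ADH5 on II at 533762 to 534817. Each record spans coding sequence alone, with 563 codons before the stop codon in the decarboxylase genes, 348 in ADH1 and ADH2, 375 in ADH3 and 351 in ADH5. ADH1 and ADH2, and likewise the decarboxylase genes, are close copies of each other. How the authors assigned reads that match more than one copy is not stated in any source at hand, so the values of single copies are uncertain. Reads of every isolate were counted against one reference genome, and the part of sequence differences between isolates was not tested.

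The mRNA libraries held 3703931 to 11570247 reads and the footprint libraries 27621 to 4391002 reads, the shallowest being those of BAN. The 7 genes took 0.116% to 1.08% of the mRNA reads and 0.304% to 4.22% of the footprint reads, lowest in CQC and highest in BED in both assays. Open reading frames of the mitochondrial genome took 1.17% to 21.3% of the mRNA reads, with 21.3% and 19.2% in the CQC libraries and at most 11.9% elsewhere. Levels are given as CPM, counts scaled to one common library total over all open reading frames. Levels of different genes are compared as RPKM, which is CPM divided by the coding length in kilobases, or as ratios per coding base. In a bulk culture, fewer cells that express a gene and less RNA per cell cannot be told apart.

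ADH1 had the highest mean level over the isolates in both assays, at 2884 RPKM in mRNA and 9991 RPKM in footprints. In mRNA it was followed by ADH3 (838 RPKM), PDC1 (634 RPKM), ADH2 (204 RPKM), ADH5 (171 RPKM), PDC5 (62.8 RPKM) and PDC6 (15.2 RPKM). In footprints PDC1 came second at 6392 RPKM, ahead of ADH2 (2620 RPKM), PDC5 (667 RPKM), ADH3 (406 RPKM), ADH5 (109 RPKM) and PDC6 (68.3 RPKM). By isolate, the mRNA level of ADH3 in RPKM was above that of ADH2 in all 8 isolates and above that of PDC1 in 6, the exceptions being BED and CPI. In footprints ADH3 was below PDC1 in all 8 and below ADH2 in 7, the exception being CQC. These means hide wide ranges, which the plot of CPM by isolate shows.

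**Figure D1:**
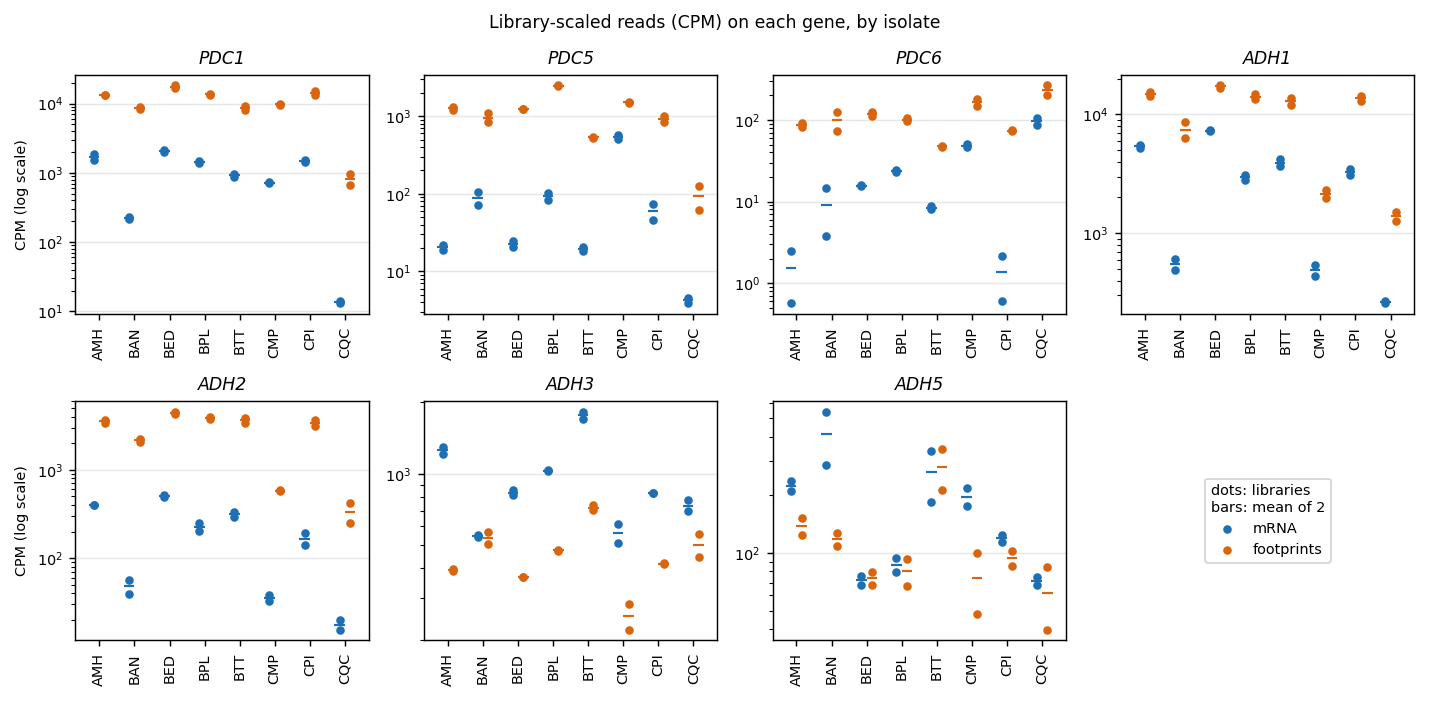
Library-scaled reads (CPM, log scale) on each of the 7 genes in the 8 isolates, with mRNA in blue and footprints in orange; dots are single libraries and bars the mean of 2. CQC lies lowest for PDC1, PDC5, ADH1 and ADH2 in both assays and highest for PDC6.

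All 7 genes differed across the isolates in mRNA, footprints and TE by edgeR's quasi-likelihood F-test at an adjusted p of 0.05. So did most genes in the first 2 layers: 95.7% of 6269 genes were called in mRNA and 73.1% of 5347 in footprints, against 30.8% of 5337 in TE. The call for the 7 genes across isolates in mRNA therefore says little by itself, and the results below turn on which isolates differed and by how much. Each isolate was then compared, on the log2 scale, with the average of the 7 remaining isolates, which gives 56 differences per layer. In mRNA 28 were called higher and 19 lower, where 31.9% of all differences over all genes were called higher and 27.2% lower. In footprints 23 were higher and 11 lower, against backgrounds of 16.8% and 11.7%. In TE 10 were higher and 10 lower, against backgrounds of 3.7% and 4.24%. With the mitochondrial open reading frames left out, 47 mRNA differences were called, the same number as with them, but as 27 higher and 20 lower. An average on the log2 scale falls where an isolate lies far below the rest, as CQC does for several genes. Another isolate can then be called higher although its mean CPM lies below that of the other 7. Differences below are log2 values with their standard error. In mRNA and in footprints they come from 2 libraries of the isolate against 14. In TE they come from all 32 libraries of both assays.

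**Figure D2:**
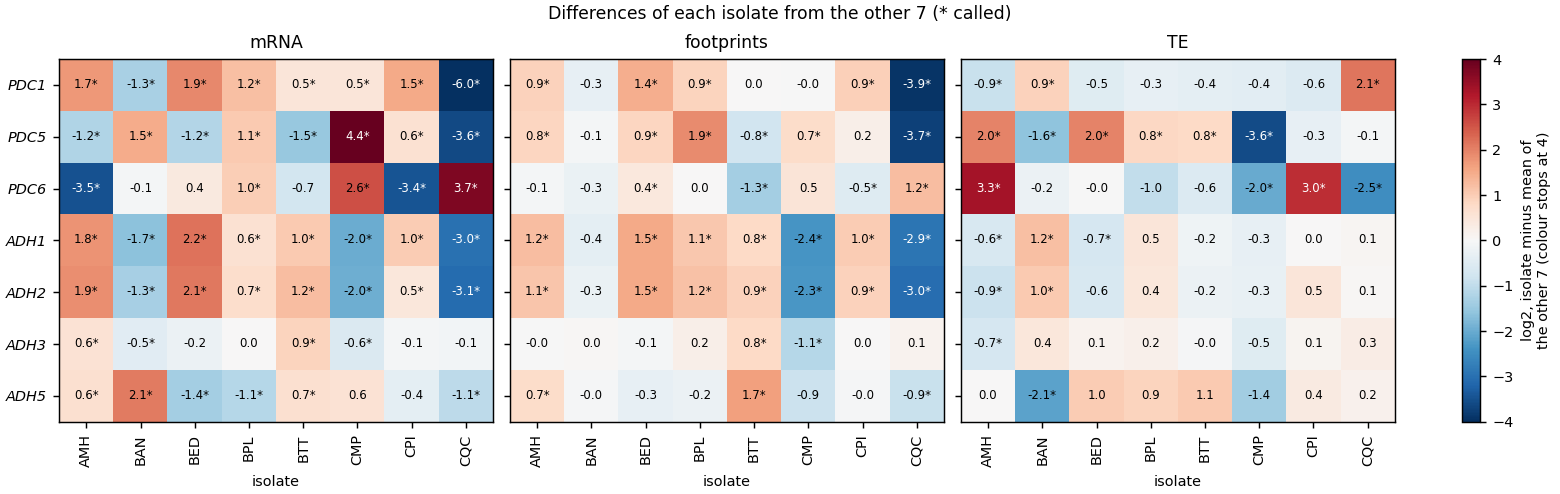
Log2 difference of each isolate from the mean of the other 7 for the 7 genes in mRNA, footprints and TE, with an asterisk where edgeR called it; colours stop at 4. ADH1 and ADH2 show nearly the same rows, PDC1 is lowest in CQC, and PDC5 is negative in mRNA and positive in footprints in AMH and BED.

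PDC1 mRNA was lowest in CQC and highest in BED, and the same 2 isolates were the extremes in footprints. In the first and second mRNA libraries, with isolates from low to high mean as in all such lists here, PDC1 stood at 14.3 and 13.1 CPM in CQC, 233 and 218 in BAN, 746 and 706 in CMP, 874 and 968 in BTT, 1388 and 1470.3 in BPL, 1531 and 1455 in CPI, 1549.6 and 1855 in AMH and 2115 and 2034 in BED. Its footprints stood at 972 and 660.5 CPM in CQC, 8384 and 8834 in BAN, 8084 and 9179 in BTT, 9603 and 9849 in CMP, 13398 and 13257 in AMH, 13481 and 13616 in BPL, 13168 and 15325 in CPI and 16914 and 18319 in BED. Both CQC libraries lay below the 14 others in each assay, with no overlap. CQC was lower in mRNA by a log2 difference of -6.05 ± 0.19 (edgeR, adjusted p = 2.9e-12) and in footprints by one of -3.91 ± 0.22 (edgeR, adjusted p = 2.1e-14). BED was higher, at 1.91 ± 0.10 in mRNA (edgeR, adjusted p = 2.2e-09) and 1.44 ± 0.14 in footprints (edgeR, adjusted p = 5.9e-09). The BED difference in mRNA was 1.07 without CQC among the isolates it was compared with, and 1.27 with the reads of the 3 decarboxylase genes summed.

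The other isolates spanned less. From low to high mean mRNA the order was CQC, BAN, CMP, BTT, BPL, CPI, AMH and BED. Of the 7 neighbouring pairs in that order, edgeR called CQC and BAN, BAN and CMP, and BTT and BPL, and no other: CMP and BTT, and the steps from BPL through CPI and AMH to BED, were not called. In BAN PDC1 mRNA was lower (log2 -1.29 ± 0.14), whereas its footprint difference of -0.32 ± 0.17 was not called. In footprints, CMP and AMH and also CQC and BAN were the called neighbours.

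The TE of PDC1 was higher in CQC, by 2.15 ± 0.22 (edgeR, adjusted p = 2.2e-07), and in BAN, by 0.92 ± 0.20. It was lower in AMH, at -0.88 ± 0.19 (edgeR, adjusted p = 0.0027). Footprint CPM over mRNA CPM was 59.6 in CQC and 38.1 in BAN, against 7.83 to 13.4 in the other 6 isolates. When the reads of PDC1, PDC5 and PDC6 were summed as 1 gene, the CQC difference in TE was -0.355 and no longer called (edgeR, adjusted p = 0.26, with a range of 1.7e-19 to 0.26 over the settings tried), and that in mRNA was -3.21. In CQC that sum drew 84.4% of its mRNA reads from PDC6 and 71.5% of its footprint reads from PDC1. By these shares the TE of the sum is not that of PDC1. The shares rest on the same assignment of reads to single copies, and the part of shared reads was not tested. The AMH call was lost in 5 of 41 settings, with adjusted p from edgeR or DESeq2 reaching 0.357.

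PDC5 mRNA was highest in CMP and lowest in CQC, and in 6 of 8 isolates its footprint difference departed from its mRNA difference by the TE test given below. PDC5 mRNA in the 2 libraries of each isolate, from low to high mean, was 4.57 and 3.88 CPM in CQC, 18.5 and 20.5 in BTT, 22.2 and 18.9 in AMH, 24.9 and 20.8 in BED, 46.5 and 74.1 in CPI, 107 and 71.3 in BAN, 83.9 and 102 in BPL and 508 and 575 in CMP. PDC5 footprints were 124 and 61.7 CPM in CQC, 526 and 544 in BTT, 843 and 1011 in CPI, 1089 and 833 in BAN, 1242 and 1243 in BED, 1331 and 1216 in AMH, 1536 and 1503 in CMP and 2470.0 and 2497 in BPL. In mRNA both CMP libraries lay far above all others, and in footprints both BPL libraries lay above all others. CMP was higher in mRNA by 4.36 ± 0.11 (edgeR, adjusted p = 3.5e-13) but in footprints by 0.72 ± 0.16. BPL was higher in footprints by 1.89 ± 0.14 (edgeR, adjusted p = 2e-11) and in mRNA by 1.06 ± 0.13. CQC was lower in both, at -3.62 ± 0.22 in mRNA (edgeR, adjusted p = 2.3e-09) and -3.72 ± 0.24 in footprints (edgeR, adjusted p = 6.5e-13), from 17 to 32 reads per library. Without the first CQC footprint library the footprint value was -4.36.

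AMH and BED were the isolates in which a gene of the 7 was called in opposite directions in the 2 assays. In AMH PDC5 mRNA was lower (-1.2 ± 0.17) and its footprints were higher (0.85 ± 0.15). In BED the differences were -1.17 ± 0.16 and 0.86 ± 0.15. Both footprint differences are set against an average that includes the far lower CQC (93.1 CPM). In mean footprints AMH (1273 CPM) and BED (1242 CPM) lay above BTT (535 CPM), CPI (927 CPM) and BAN (961 CPM). They lay below CMP (1520 CPM) and BPL (2483 CPM). The AMH and BED footprint differences without CQC were not recorded. None of the 54 other comparisons of an isolate's mRNA and footprint difference gave calls of opposite sign. The TE of PDC5 was accordingly higher in AMH (1.97 ± 0.23) and in BED (2.0 ± 0.23, edgeR, adjusted p = 2e-06). It was lower in CMP, by -3.57 ± 0.23 (edgeR, adjusted p = 6.8e-11), and in BAN, by -1.61 ± 0.26. Of the 8 isolates, 6 were called in TE for PDC5, 4 higher and 2 lower. Footprint CPM over mRNA CPM ran from 2.81 in CMP to 62.0 in AMH. Reads shared between PDC5 and the far more abundant PDC1 would enter these ratios, and their part was not tested.

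In mean PDC5 mRNA the order was CQC, BTT, AMH, BED, CPI, BAN, BPL and CMP, and no difference was called between neighbours among BTT, AMH and BED, nor between BAN and BPL. In footprints the order was CQC, BTT, CPI, BAN, BED, AMH, CMP and BPL, and none was called between neighbours among BED, AMH and CMP, nor between CPI and BAN. Over the 28 pairs of isolates, 23 were called for PDC5 in mRNA and 21 in footprints, where 57.3% and 27.6% of all pairwise tests over all genes were called. PDC1 had 23 and 19 called pairs.

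PDC6, the minor decarboxylase gene, was the sole member of the 7 that was highest in CQC. It rests on few reads: in mRNA they numbered 23 and 7 in CPI, 17 and 6 in AMH, 86 and 82 in BTT, 60 and 14 in BAN, 121 and 169 in BED, 235 and 239 in BPL, 289 and 290 in CMP and 748 and 540 in CQC. In footprints they numbered 148 and 209 in BTT, 103 and 108 in CPI, 29 and 105 in AMH, 8 and 2 in BAN, 67 and 98 in BPL, 86 and 135 in BED, 26 and 15 in CMP and 66 and 55 in CQC. Its mean mRNA was 97.1 ± 13.7 CPM in CQC and 48.7 ± 2.11 CPM in CMP (SD, n = 2), against 1.51 ± 1.34 CPM in AMH and 1.39 ± 1.1 CPM in CPI. The CQC libraries lay above all others in both assays. CQC was higher by 3.73 ± 0.21 in mRNA (edgeR, adjusted p = 7.6e-10) and 1.22 ± 0.18 in footprints (edgeR, adjusted p = 2.7e-06), and CMP was higher by 2.58 ± 0.23 in mRNA.

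AMH and CPI had the least PDC6 mRNA, at -3.47 ± 0.43 (edgeR, adjusted p = 6.1e-06) and -3.45 ± 0.41. The AMH value was -4.65 without its first library and -2.67 without its second. PDC6 footprints in AMH differed from the other isolates by -0.07 ± 0.18, which was not called, and those in CPI were lower by -0.50 ± 0.17. The lowest footprint level was in BTT (-1.35 ± 0.16, edgeR, adjusted p = 4e-07). TE was higher in AMH (3.33 ± 0.44, edgeR, adjusted p = 1.1e-05) and CPI (2.96 ± 0.40), and lower in CQC (-2.49 ± 0.32, edgeR, adjusted p = 7.8e-06) and CMP (-2.01 ± 0.38). Without 1 or the other AMH mRNA library the AMH difference in TE was 4.50 or 2.53. In footprints the range of the isolate means was 4.90-fold, against 70.1-fold in mRNA. Reads shared between PDC6 and PDC1, which was far more abundant in AMH and CPI, would enter these PDC6 values, and their part was not tested. Among neighbours in level, AMH and BTT, BPL and CMP, and CMP and CQC were called in mRNA, and BTT and CPI alone in footprints.

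Among the 3 decarboxylase genes, PDC6 held most mRNA reads in CQC. There it took 84.4% ± 0.904 of them (SD, n = 2 libraries), PDC1 12% ± 0.845 and PDC5 3.68% ± 0.0598. Of the footprint reads in CQC, PDC1 took 71.5% ± 0.189, PDC6 20.6% ± 1.54 and PDC5 7.92% ± 1.73. In CMP PDC5 took 41.1% ± 2.94 of the mRNA reads and 13.3% ± 0.358 of the footprint reads. In BED PDC1 took 98.2% ± 0.0674 and 92.8% ± 0.333. PDC1 thus held the largest share of the footprint reads in all 8 isolates and of the mRNA reads in 7.

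Ratios of reads within a library do not depend on how libraries are scaled, and the 3 decarboxylase genes have the same coding length, as do ADH1 and ADH2. The mean ratio of PDC5 to PDC1 reads in mRNA was 1.1% in BED, 1.22% in AMH, 2.12% in BTT, 4.06% in CPI, 6.48% in BPL, 30.8% in CQC, 39.2% in BAN and 74.8% in CMP. In footprints it was 6.22% in BTT, 6.5% in CPI, 7.06% in BED, 9.55% in AMH, 11.1% in CQC, 11.2% in BAN, 15.6% in CMP and 18.3% in BPL. The isolates thus spanned 67.8-fold in mRNA and 2.95-fold in footprints. Both spans were larger than the spread between replicates by an exact one-sided permutation test over the 2027025 pairings of 16 libraries, with adjusted p of 7.4e-06 and 0.000318 over 12 tests. The smallest p that this test can give is 4.9e-07. PDC6 to PDC1 spanned 0.0915% (CPI) to 707% (CQC) in mRNA and 0.522% (CPI) to 28.7% (CQC) in footprints, with adjusted p of 0.000212 and 6.3e-05 by the same exact test. Without CQC the PDC6 spans fell from 13.22 to 6.51 in mRNA and from 5.79 to 1.73 in footprints on the log2 scale.

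**Figure D3:**
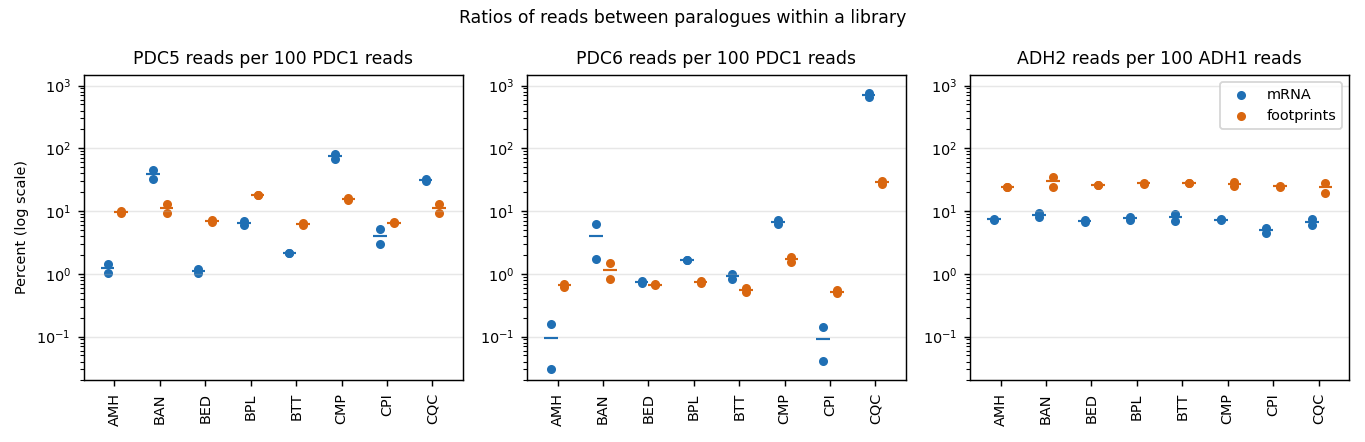
Reads on PDC5 or PDC6 per 100 reads on PDC1, and on ADH2 per 100 on ADH1, in each library (dots) with the isolate means (bars), on a log scale. PDC5 and PDC6 move far more in mRNA (blue) than in footprints (orange), while the isolate means of ADH2 stay between 5.01% and 8.64% of ADH1 in mRNA and between 23.9% and 29.9% in footprints.

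ADH1, the main fermentative alcohol dehydrogenase gene, was highest in BED and AMH and lowest in CQC, CMP and BAN. ADH1 mRNA in the 2 libraries of each isolate was 257 and 269.5 CPM in CQC, 539.6 and 436 in CMP, 609 and 494 in BAN, 2827 and 3104 in BPL, 3486 and 3120.2 in CPI, 3683 and 4176 in BTT, 5251 and 5507 in AMH and 7223 and 7338 in BED. ADH1 footprints were 1498 and 1274 CPM in CQC, 1998 and 2304 in CMP, 8558 and 6336 in BAN, 12012 and 13829.6 in BTT, 14154 and 13074 in CPI, 13383 and 14810.0 in BPL, 14328 and 15469 in AMH and 16818 and 17532 in BED. In mRNA the 6 libraries of CQC, CMP and BAN lay below the 10 others, and in footprints the CQC and CMP libraries lay below the rest, with BAN between. BED was higher by 2.16 ± 0.10 in mRNA (edgeR, adjusted p = 3.9e-10) and 1.53 ± 0.14 in footprints (edgeR, adjusted p = 5.2e-09). CQC was lower by -2.99 ± 0.15 (edgeR, adjusted p = 2e-10) and -2.92 ± 0.21 (edgeR, adjusted p = 5.8e-12). In CMP the differences were -1.99 ± 0.14 in mRNA and -2.37 ± 0.21 in footprints.

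On the log2 scale PDC1 mRNA was called higher in CMP by 0.48 ± 0.12, against an average that includes the far lower CQC. In CPM its CMP mean was 726, below the 1123 that the other 7 isolates averaged. The PDC1 footprint difference of -0.01 ± 0.16 in CMP was not called. Per coding base, PDC1 stood at 92.8% of ADH1 in CMP mRNA and at 3.22% in CQC, with a median of 22.6% over the isolates. In footprints it stood at 281% in CMP and 36.1% in CQC, with a median of 61.5%. Both spans exceeded the replicate spread (exact permutation test, adjusted p = 5.9e-06 and 0.000651). Without CQC the span in mRNA was 2.67 instead of 4.84 on the log2 scale.

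The mRNA order for ADH1 was CQC, CMP, BAN, BPL, CPI, BTT, AMH and BED, with CQC and CMP, BAN and BPL, and BTT and AMH called among neighbours. In footprints CMP and BAN and also BAN and BTT were called. The TE of ADH1 was higher in BAN, by 1.2 ± 0.21 (edgeR, adjusted p = 0.00015), and lower in AMH (-0.64 ± 0.20) and BED (-0.67 ± 0.20, edgeR, adjusted p = 0.044). The BED call was lost in 29 of 41 settings, with adjusted p from 0.00483 to 0.332. The BAN difference was 0.553 and not called when ADH1, ADH2 and ADH5 reads were summed (edgeR, adjusted p = 0.107), and 1.86 when a trend of each library with coding length was removed. In the BAN mRNA libraries that sum held 1170 and 1999 reads of ADH5 beside 2495 and 1828 of ADH1. The BAN footprint values rest on 542 and 175 reads.

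ADH2, whose enzyme is best known for oxidising ethanol, was called in the same direction as ADH1 in each isolate in mRNA and in footprints, or like it was not called (BAN footprints). Its mRNA was 15.6 and 19.9 CPM in CQC, 38.3 and 32.5 in CMP, 56.8 and 39.1 in BAN, 191 and 142 in CPI, 201 and 253 in BPL, 335 and 290.2 in BTT, 399 and 398 in AMH and 515 and 487 in BED. ADH2 footprints were 426 and 247 CPM in CQC, 586 and 571 in CMP, 2084 and 2245 in BAN, 3618 and 3160.1 in CPI, 3415 and 3693 in AMH, 3392 and 3852 in BTT, 3789 and 3960.4 in BPL and 4326 and 4533 in BED. As for ADH1, the 6 mRNA libraries of CQC, CMP and BAN lay below all others. BED was higher by 2.11 ± 0.11 in mRNA (edgeR, adjusted p = 1.7e-09) and 1.5 ± 0.14 in footprints (edgeR, adjusted p = 7e-09). CQC was lower by -3.08 ± 0.18 (edgeR, adjusted p = 1.1e-09) and -3.04 ± 0.22 (edgeR, adjusted p = 6.2e-12), and CMP by -1.96 ± 0.16 and -2.32 ± 0.22. In both layers 5 isolates were called higher for each of ADH1 and ADH2, with 3 lower in mRNA and 2 lower in footprints.

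The mean ratio of ADH2 to ADH1 reads in mRNA was 5.01% in CPI, 6.71% in CQC, 6.89% in BED, 7.28% in CMP, 7.41% in AMH, 7.63% in BPL, 8.03% in BTT and 8.64% in BAN. In footprints it was 23.9% in AMH, 23.9% in CQC, 24.9% in CPI, 25.8% in BED, 27% in CMP, 27.5% in BPL, 28% in BTT and 29.9% in BAN. In mRNA the span was 1.73-fold (exact permutation test, adjusted p = 0.0321). Without BAN it did not pass (exact permutation test, adjusted p = 0.0641, within a range of 0.0134 to 0.172 over the settings). Leaving out 1 mRNA library lost the call in 8 cases: either library of AMH, BED or CMP, the first of BAN or the second of CPI. In footprints the span of 1.25-fold was not larger than the replicate spread by the same exact test (adjusted p = 0.759). The other 11 of the 12 ratio tests passed. The ratio was higher in footprints than in mRNA in all 8 isolates. Neither assay shows which reads on ADH2 could have come from ADH1, and the part of shared reads was not tested.

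In TE, ADH2 was higher in BAN (1.04 ± 0.25, edgeR, adjusted p = 0.0042) and lower in AMH (-0.86 ± 0.21, edgeR, adjusted p = 0.0087). The BAN call was lost without the first BAN footprint library (0.92, edgeR, adjusted p = 0.12) and its value was 1.67 with the length trend removed; adjusted p over its settings ran from 0.000937 to 0.123. The AMH call was lost in 3 of 40 settings, with adjusted p from 5e-05 to 0.114. For ADH2 neighbours in level, edgeR called CQC and CMP, CMP and BAN, BAN and CPI, and BTT and AMH in mRNA, and in footprints CMP and BAN and also BAN and CPI. The 3 settings that lost the AMH call in TE were the removal of the length trend, the omission of the second AMH mRNA library and the omission of the first AMH footprint library.

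ADH3, which makes the mitochondrial alcohol dehydrogenase, varied least of the 7 in both assays. ADH3 mRNA was 541 and 551 CPM in BAN, 617 and 510.1 in CMP, 697 and 774 in CQC, 832 and 834 in CPI, 816 and 852 in BED, 1034 and 1028 in BPL, 1209 and 1304 in AMH and 1697 and 1828 in BTT. ADH3 footprints were 282 and 220.4 CPM in CMP, 369 and 366 in BED, 395 and 389.6 in AMH, 419 and 416 in CPI, 475 and 476 in BPL, 446 and 559 in CQC, 568 and 507 in BAN and 702 and 739 in BTT. The mRNA means ran from 546 ± 7.5 CPM in BAN to 1763 ± 92.2 CPM in BTT (SD, n = 2), a 3.23-fold range. Its footprints ran from 251 ± 43.9 CPM in CMP to 721 ± 26.4 CPM in BTT, a 2.87-fold range. BTT libraries were above all others in both assays. BTT was higher by 0.89 ± 0.12 in mRNA (edgeR, adjusted p = 2.3e-05) and 0.79 ± 0.12 in footprints (edgeR, adjusted p = 1.8e-05). CMP was lower by -0.59 ± 0.13 (edgeR, adjusted p = 0.0021) and -1.14 ± 0.20 (edgeR, adjusted p = 8.9e-05). The CMP call in mRNA was lost without the second CMP mRNA library (edgeR, adjusted p = 0.053, the highest over its settings, from 3.6e-05). In CQC, where ADH1, ADH2, PDC1 and PDC5 were lowest, ADH3 differed by -0.12 ± 0.13 in mRNA and 0.15 ± 0.15 in footprints, and neither was called.

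Per coding base, ADH3 stood at 259% of ADH1 in CQC mRNA and at 10.6% in BED, and at 34.2% and 1.99% in footprints (exact permutation test, adjusted p = 3e-06 in each, from the smallest p that the test can give). Without CQC these spans were 3.33 instead of 4.60 in mRNA and 2.46 instead of 4.08 in footprints on the log2 scale. Of the 7 neighbouring pairs of ADH3 mRNA, BPL and AMH alone were called, and of those of its footprints CMP and BED alone. The TE of ADH3 was lower in AMH, by -0.66 ± 0.18 (edgeR, adjusted p = 0.017), a call that was lost in 7 of 41 settings with adjusted p of up to 0.128.

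ADH5, a minor alcohol dehydrogenase gene, had its highest mRNA in BAN and its highest footprints in BTT. Its mRNA in the 2 libraries was 68.4 and 74.7 CPM in CQC, 68.3 and 75.7 in BED, 79.8 and 93.7 in BPL, 114 and 123 in CPI, 175 and 216 in CMP, 210.0 and 237 in AMH, 184 and 339 in BTT and 285 and 539.7 in BAN. Its footprints were 84.3 and 39.9 CPM in CQC, 79 and 68.1 in BED, 48.2 and 100.2 in CMP, 67.2 and 93.1 in BPL, 102 and 85.6 in CPI, 126 and 109 in BAN, 123 and 152 in AMH and 211 and 348 in BTT. The replicates of BAN and of BTT differed more than those of the other isolates in mRNA, and the first BAN library lay below the second BTT library. BAN was higher in mRNA by 2.07 ± 0.23 (edgeR, adjusted p = 2e-06), a value of 1.15 without the second BAN mRNA library, and BED was lower by -1.37 ± 0.30 (edgeR, adjusted p = 0.0011). BTT was higher in footprints by 1.65 ± 0.18 (edgeR, adjusted p = 7.1e-08).

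CQC was lower in ADH5 footprints by -0.91 ± 0.35 (edgeR, adjusted p = 0.035), from 21 and 11 reads. That value was -0.434 and not called without the second CQC footprint library (edgeR, adjusted p = 0.472, within a range of 0.00285 to 0.472 over the settings), and -1.58 without the first. In BAN, with 8 and 3 footprint reads, the TE of ADH5 was lower by -2.15 ± 0.71 (edgeR, adjusted p = 0.042). The TE call was lost in 10 of 39 settings, with adjusted p from 0.00119 to 0.334, and the value was -1.29 without the second BAN mRNA library. Among ADH5 neighbours in mRNA, CPI and CMP and also BTT and BAN were called, and in footprints AMH and BTT alone.

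Of the 49 neighbouring pairs over the 7 genes, 20 were called in mRNA and 13 in footprints. The share of neighbouring pairs called over all genes was not computed. The order follows mean CPM, while the test scales libraries by TMM, so a few neighbouring pairs that were not called have a fitted difference of the opposite sign. Over all 28 pairs of isolates, between 15 (ADH3) and 25 (ADH2) were called in mRNA, and between 10 (ADH3) and 21 (PDC5) in footprints. For all genes, 57.3% of such pairwise tests were called in mRNA and 27.6% in footprints.

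The genes around these 2 steps were described from lists by function, without a test of the lists. In CQC the 17 glycolysis genes from glucose to pyruvate were low with PDC1 and ADH1: 16 were lower and 0 higher in mRNA, with a median log2 difference of -3.79. GPM1, phosphoglycerate mutase, stood at 47.2 ± 0.120 CPM in CQC (SD, n = 2), where the 7 remaining isolates averaged 5134 CPM. Over all 6269 genes, 37.1% were lower and 35.6% higher in CQC, with a median of 0.024. Of 24 other genes that glucose represses through Adr1 and Cat8, 22 were higher in CQC and 1 lower, with a median of 3.66. ADR1, the activator itself, stood at 764 ± 46.4 CPM in CQC against 134 CPM. ADH2, a known target of Adr1, was lower in CQC by the values above. Reads of ADH1 counted on ADH2 would enter those values, and their part was not tested. In footprints 20 of 23 tested genes of that list were higher in CQC and 1 lower (median 3.45), where 26.2% of all genes were higher and 23.3% lower.

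BED showed the reverse of CQC in these lists. Of the 17 glycolysis genes 15 were higher and 2 lower in BED mRNA (median 1.71), where 32.8% of all genes were higher and 29.4% lower (median -0.018). Of the 24 glucose-repressed genes 0 were higher and 21 lower (median -2.10), while ADH2 was higher, with the same limit from reads shared with ADH1. Of 12 genes that reoxidise NADH through respiration, all 12 were lower in BED (median -2.16), while 11 were higher and 0 lower in both CQC (median 1.36) and CMP (median 1.58). In CMP 27.6% of all genes were higher and 26.2% lower. NDE1, the external mitochondrial NADH dehydrogenase, stood at 37.6 ± 2.7 CPM in BED, 324 ± 70.8 CPM in CQC and 684 ± 70.1 CPM in CMP.

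**Figure D4:**
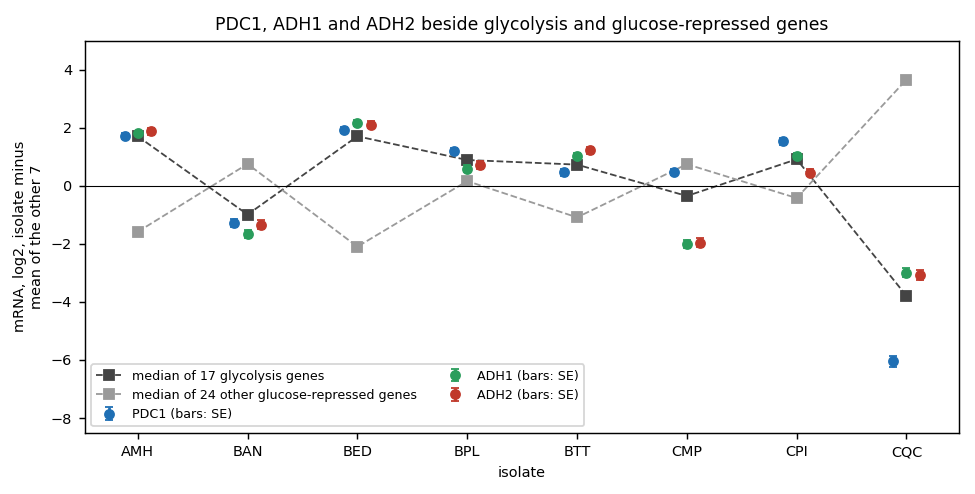
Log2 difference of each isolate from the other 7 in mRNA for PDC1, ADH1 and ADH2 (dots, bars are standard errors), beside the median of 17 glycolysis genes and of 24 other glucose-repressed genes (squares). In BED and CQC, ADH2 has the sign of the glycolysis median and the opposite sign to the glucose-repressed median, and in CMP ADH1 and ADH2 lie below both medians. The part of ADH1 reads in the ADH2 values was not tested.

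For acetaldehyde, the product of the decarboxylases, the other route leads to acetyl-CoA. The counts here stand against the shares of all genes given above, 35.6% higher and 37.1% lower in CQC, 32.8% and 29.4% in BED, and 27.6% and 26.2% in CMP. Of 8 genes on that route, 5 were higher and 1 lower in CQC mRNA (median 1.29), and 2 were higher and 6 lower in BED (median -1.02). ACS1, an acetyl-CoA synthetase that glucose represses, stood at 1192 ± 30.4 CPM in CQC and 12.9 ± 2.25 CPM in BED. Of 10 other alcohol and aldehyde reductases, 5 were higher and 4 lower in CQC, 5 higher and 2 lower in CMP, and 4 higher and 6 lower in BED. Of 4 glycerol synthesis genes, too few to set against those shares, 0 were higher and 2 lower in CQC (median -0.70). Of 14 genes of mitochondrial pyruvate use, 4 were higher and 6 lower in CQC mRNA (median -0.15), and these shares lie near those of all genes. In CQC footprints 7 of them were higher and 2 lower (median 0.47), where 26.2% of all genes were higher and 23.3% lower. In TE 6 were higher and 0 lower in CQC (median 0.73, against 0.19 for all genes). Pooled over the 8 isolates, 3.7% of all TE differences were called higher and 4.24% lower, and the share for CQC alone was not computed. Of 19 regulators of glycolysis and glucose repression, 12 were higher and 4 lower in CQC (median 0.36).

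CMP was the isolate with the most PDC5 mRNA and, after CQC, the least ADH1 and ADH2 mRNA. Of 23 genes that supply thiamine pyrophosphate, the decarboxylase cofactor, 19 were higher and 0 lower in CMP mRNA (median 1.61), where 27.6% of all genes were higher and 26.2% lower (median 0.0011). In footprints 17 of 22 tested were higher and 0 lower in CMP (median 1.77), where 11.4% of all genes were higher and 7.33% lower. THI4, which makes the thiazole part of thiamine, stood at 1153 ± 76.2 CPM in CMP, where the others averaged 38.3 CPM, and at 1.32 ± 0.956 CPM in CQC, where PDC5 was also lowest. In CQC 4 of these genes were higher and 18 lower (median -1.33). Of 20 genes of the zinc regulon 12 were higher and 5 lower in CMP (median 0.72), among them the zinc transporter ZRT1 at 6770 ± 683 CPM against 1247 CPM. ADH4 stood at 1349 ± 292 CPM in CMP against 85.6 CPM, a log2 difference of 4.65 ± 0.10. Of the glycolysis genes 2 were higher and 12 lower in CMP (median -0.35), and of the glucose-repressed genes 19 were higher and 2 lower (median 0.75).

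The likeness of mRNA patterns was measured as Pearson's r of isolate mean log2 CPM over the 8 isolates, as a description, since all genes share the same libraries and depths. ADH1 and ADH2, which are close copies, had r = 0.99, and PDC1 had r = 0.83 with each of them. The part of reads shared between ADH1 and ADH2 in these values was not tested. PDC5 had r = 0.44 with PDC1 and PDC6 had r = -0.60. Among 5083 genes with a mean of at least 5 CPM, the 3 most like PDC1 were SNL1 (0.991), the enolase gene ENO2 (0.989) and EFT1 (0.985), which encodes elongation factor 2. EFT1 has a near-identical copy, so its value is uncertain. The most like PDC5 were THI4 (0.966), MRPL49 (0.913) and AIM24 (0.905), and the most like PDC6 were COG7 (0.957), RPN13 (0.930) and PEX34 (0.907). For ADH1 they were CDC20, SWP1 and OKP1 (each 0.994), and for ADH2 AXL2 (0.993), OKP1 (0.990) and CDC20 (0.988). For ADH3 they were HSH155 (0.948), AFI1 (0.933) and RAD18 (0.929), and for ADH5 KRE29 (0.911), SYF2 (0.904) and the invertase gene SUC2 (0.903).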

How the data were processed

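The authors deposited, for each of the 32 libraries, a table of raw read counts per open reading frame and, as another value, the coding codons less 10, which was used only as coding length. The submitters' processing notes name CASAVA 1.8, STAR 2.7.0a and the build sacCer3. Per the labels' protocols, cells were collected by filtration, footprints were cut with RNase I and depleted of ribosomal RNA, and RNA-seq used a strand-preserving kit. The counting tool, its annotation and its handling of strand and of shared reads are not stated in any source at hand. Gene names and coordinates come from RefSeq's R64 gene table, which matched 6008 of 6696 open reading frames by locus tag.

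Counts were tested over all genes with edgeR 4.0.16 in R 4.3.3: genes filtered on counts (minimum 10, grouped by isolate), TMM scaling within each assay, the quasi-likelihood F-test and Benjamini-Hochberg adjustment at 0.05. Tests covered all 8 isolates, single isolates against the average of the 7 remaining, and all 28 pairs. TE was tested over 32 libraries together, as an assay-by-isolate interaction, for 5337 genes. Read ratios (0.5 reads added to each gene) were tested by exact permutation over pairings of libraries. The alternatives included DESeq2 1.42.0 and RLE scaling. The tests were tried on simulated data. Replicates differed by a chi-square of 2.03 to 30.5 per degree of freedom over genes, so no library was counted as a repeat.

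The 7 genes, the gene lists and the tests were chosen with earlier results of these data known. All 7 are described in every isolate, with full statistics for the highest and lowest isolate of each layer. Other genes are up to 4 per list with the widest mRNA range and a mean of at least 5 CPM, and the 3 most alike per member. The lists hold 160 names, all matched. Whether replicates came from separate cultures is not in the labels, so the p-values describe only how far these samples spread, possibly for technical reasons.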

Additional observations from a re-analysis of the deposited data

Results flagged for a closer look

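For 20 of the 56 combinations of gene and isolate, the difference of the isolate from the other 7 in footprints departed from its difference in mRNA by the interaction test (edgeR, adjusted p under 0.05). Values are footprint minus mRNA difference on the log2 scale.

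For PDC1 the values were -0.88 in AMH, 0.92 in BAN and 2.15 in CQC. For PDC5 they were 1.97 in AMH, -1.61 in BAN, 2.0 in BED, 0.82 in BPL, 0.81 in BTT and -3.57 in CMP. PDC6 gave 3.33 in AMH, -2.01 in CMP, 2.96 in CPI and -2.49 in CQC. Reads shared among the 3 decarboxylase genes would enter these values, and their part was not tested. Among the dehydrogenase genes, ADH1 gave -0.64 in AMH, 1.2 in BAN and -0.67 in BED, and ADH2 gave -0.86 in AMH and 1.04 in BAN. ADH3 gave -0.66 in AMH and ADH5 gave -2.15 in BAN. BAN, whose footprint libraries were the shallowest with 63336 and 27621 reads, accounts for 5 of the 20 values and AMH for 6. The TE of the glycolysis list (17 genes) moved with that of PDC1 in AMH, CQC and BAN. Over all genes, 3.7% of TE differences pooled over the 8 isolates were called higher and 4.24% lower, and shares for single isolates were not computed. The calls of the glycolysis list in AMH were 12 down and 0 up (median -0.79, all genes -0.095). In CQC they were 10 up and 0 down (median 0.78, all genes 0.19). In BAN they were 6 up and 1 down (median 0.58, all genes -0.078). PDC5 in AMH and BAN, PDC6 in AMH and CQC, and ADH5 in BAN had the opposite sign. The cause was not tested. No group had the 4 or more libraries that a check for a single deviating library needs.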

How the results depend on the processing

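All 7 genes stayed called across isolates in mRNA and footprints under every setting that counted them separately; in TE 5 to 7 were called when 1 library was left out, 6 without BAN or without the filter, and 5 with the length trend removed. Of 1638 combinations of a named value and a setting, 71 lost the call, 5 gained it and 1 changed sign. Losses numbered 1 in mRNA, 5 in footprints, 56 in TE and 9 in the ratios. The reversal was set against the TE of PDC1 in CQC and was -0.355 with paralogue reads summed. That sum is not PDC1 alone: by the single-copy counts PDC6 held 84.4% of its mRNA reads in CQC. The part of shared reads in those counts was not tested.

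Summing paralogue reads leaves 3 genes and 24 differences by construction: 3 genes were called across isolates in each of mRNA, footprints and TE, and 19, 14 and 3 differences. With the length trend removed 13 TE differences were called instead of 20. Without CQC 36 mRNA, 30 footprint and 15 TE differences were called, of the 49 left, and without BAN 43, 33 and 14; the omission of CQC, and that of BAN from mRNA, were chosen after seeing the data. The causes were not tested.

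With 1 library left out, calls ranged from 44 to 50 differences in mRNA, 32 to 34 in footprints and 14 to 23 in TE; from 5980 to 6243, 3653 to 3953 and 1406 to 2048 genes across isolates; and from 10 to 11 ratios. Where this left 1 library, it was assumed to vary like the others.

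The replicate block paired same-numbered mRNA and footprint libraries of an isolate. Their deviations correlated positively in all 8 isolates, with r from 0.0826 in BAN to 0.719, and over 0.1 in 7 of 8; pairing was taken to need every one over 0.1, so it was not used. With the block, 2468 genes differed in TE across isolates instead of 1643, and 31 TE differences of the 7 genes were called instead of 20. Among the named values it changed 1 call, the TE of ADH5 in BTT, 1.04 (edgeR, adjusted p = 4.6e-06). RLE scaling moved the median of all genes by up to 0.108 in mRNA, 0.114 in footprints and 0.101 in TE. DESeq2 moved it by up to 0.131, and the length trend by up to 0.225. Ratios per coding base differ from read ratios by a constant and leave the tests as they are. Depth limits BAN footprints most, with 2 to 8 reads on PDC6 and 3 to 8 on ADH5.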
